A study of Mus musculus with 10 samples.

Results

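Serine, one-carbon and methionine metabolism was followed in kidney RNA-seq of KM and KMS mice through a list of 36 genes chosen by function. They encode the enzymes that make serine, pass its carbon to folate, break down glycine and betaine, run the methionine cycle and feed homocysteine into cysteine, together with folate carriers and asparagine synthetase. Genes were matched by symbol to the deposited count table of 21010 genes, which held 35 of them, and all 35 passed the filter on low counts that left 15728 genes for testing. Sds, which encodes serine dehydratase, was not analysed here.

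Both groups were C57BL/6 mice aged 20 weeks, with 5 mice and 1 library per mouse in each. KM mice had the labelled genotype Ksp1.3/cre with MYCfl/fl, in which a Cre driven by the Ksp (Cdh16) promoter of tubular epithelium switches on a MYC transgene, and they develop polycystic kidneys. KMS mice carried both of these and Setd2fl/fl, so that the same Cre also removes the methyltransferase of H3K36me3, and they develop neoplastic masses. Both groups therefore overexpress MYC, no mouse without the transgene was compared, and cells in which the promoter is silent keep their alleles. The RNA came from kidney tissue according to the methods, from cysts of KM and masses of KMS mice according to another passage of the study, and from primary tubular epithelial cells of the cortex according to the labels.

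In this pathway serine hydroxymethyltransferases move a carbon from serine to tetrahydrofolate, and the loaded folates supply purine and thymidylate synthesis and the remethylation of homocysteine. Methionine is then activated to S-adenosylmethionine, the methyl donor of nearly all methyltransferases, SETD2 among them. The proximal tubule of the kidney is known for making serine from glycine, for reabsorbing folate and for oxidising choline to betaine. Serine is also a substrate of sphingolipid synthesis. The transcription factor ATF4 is known to induce serine synthesis, mitochondrial folate enzymes and Asns when amino acids are scarce.

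Total counts lay between 10873993 and 14564152 in KM and between 16925118 and 25029639 in KMS, so every KMS library was deeper. Setd2, counted over the whole gene, was at 62.6 to 73.3 CPM (counts scaled to a common library size) in KM and at 28.2 to 89.0 CPM in KMS, with an FDR of 0.658 in edgeR's quasi-likelihood test, so its total count did not separate the genotypes. KMS replicate 5 stood apart from the other libraries, with a normalization factor of 0.642 and a mean Spearman correlation with its own group of 0.851, against 0.913 to 0.958 for the other libraries. Y-linked genes had graded levels. Their mean log2 CPM was 4.08 to 6.74 in 4 of 5 KM libraries and -2.43 in KM replicate 4. In KMS it was 4.96 in replicate 4, 2.34 in replicate 5 and -2.43 to -1.08 in replicates 1 to 3. The labels give no sex, and the study states that it used male and female mice. Of all tested genes 16 were called at the study's thresholds (FDR under 0.05 and a fold change past 1.5 in either direction), 4 higher and 12 lower in KMS, which is 0.102%. Markers of the tubular epithelium were present in every library, with summed levels of 1416 to 2259 CPM in KM and 1526 to 2182 CPM in KMS, and the 12 proximal tubule markers summed to 7331 to 22595 and 3976 to 26541 CPM. The summed levels of 13 immune cell genes (164 to 308 against 46.9 to 127 CPM) and 10 fibroblast genes (339 to 715 against 171 to 293 CPM) were lower in every KMS library than in any KM library. In all 13 and all 10 the log2 fold change was negative, and 10 genes of dividing cells, also negative in 10 of 10, summed to 118 to 234 CPM in KM and 68.9 to 124 CPM in KMS. Of 8 collecting duct genes 7 were negative (4 at an unadjusted p under 0.05, median -0.54), with sums of 379 to 988 CPM in KM and 283 to 699.9 CPM in KMS. Of 9 genes of tubule injury 8 were negative (4 at an unadjusted p under 0.05, median -1.88), with sums of 2824 to 13079.5 and 1787 to 8237 CPM. The part of these cell types in the results that follow was not tested, and in bulk RNA fewer cells of a type and less RNA per cell cannot be told apart.

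None of the 35 genes was called in edgeR, against 0.102% of all tested genes, and the lowest FDR among them was 0.166. At an unadjusted p under 0.05 in the same edgeR quasi-likelihood test, 9 of 35 (25.7%) were higher in KMS, where the share over all genes was 10.8%, and 2 (5.71%) were lower, where it was 8.62%. The log2 fold change was positive for 24 genes and negative for 11, with a median of 0.42 beside 0.056 over all tested genes. In none of the 35 did all 5 KMS libraries lie on one side of all 5 KM libraries, while this held for 4.79% of all tested genes. In 7 of the 35 genes at least 4 of 5 KMS libraries lay above the highest KM library. Over all tested genes this share was 7.24%. In 2 of the 35, Mat2a and Asns, at least 4 lay below the lowest KM library, where the share over all tested genes was 9.1%. The 9 genes at an unadjusted p under 0.05 and higher in KMS were Psat1, Psph, Shmt1, Slc19a1, Gcsh, Sardh, Mat2b, Ahcy and Gnmt, and the 2 lower were Mat2a and Asns.

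The library that stood apart also carried part of this pattern. KMS replicate 5 was the highest of all 10 libraries for 16 of the 35 genes, whereas KM replicate 5 was the lowest for 14. Without KMS replicate 5, 7 of the 11 genes were still at an unadjusted p under 0.05, namely Psat1, Psph, Shmt1, Slc19a1, Mat2b, Gnmt and Asns, and Mthfd2 and Ftcd joined them with negative values. Without this library, 20 of the 35 genes had a log2 fold change of the other sign or one that moved by over 1.5 times. The counts were then 6 higher (17.1%, beside 7.12% of all genes) and 3 lower (8.57%, beside 9.91%), and the median log2 fold change was 0.26 beside 0.052, with none of the 35 called where 0.138% of all genes were. Scaling by upper-quartile factors moved the median of all genes from 0.056 to -0.090 and gave a median of 0.26 for the 35 genes, with 4 of them higher (5.92% of all genes) and 4 lower (11.3% of all genes) at an unadjusted p under 0.05. The division of these calls between the directions thus depended on the scaling. The level of Y-linked genes was also tried as a covariate. Psat1, Shmt1, Mat2a, Mat2b and Ahcy then had unadjusted p of 0.0574, 0.426, 0.146, 0.0922 and 0.0641 in edgeR. Psph, Slc19a1, Gcsh, Sardh, Gnmt and Asns stayed under 0.05. Other tools called a few of the genes where they also called more of all genes. DESeq2 called 1 (Gnmt, beside 5.24% of all genes), limma-voom with quality weights 1 (Gldc, beside 4.2%), RUVg 1 (Slc19a1, beside 6.35%) and RUVr 6 (Psph, Shmt2, Slc19a1, Fpgs, Sardh and Gnmt, beside 14.9%).

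**Figure D1:**
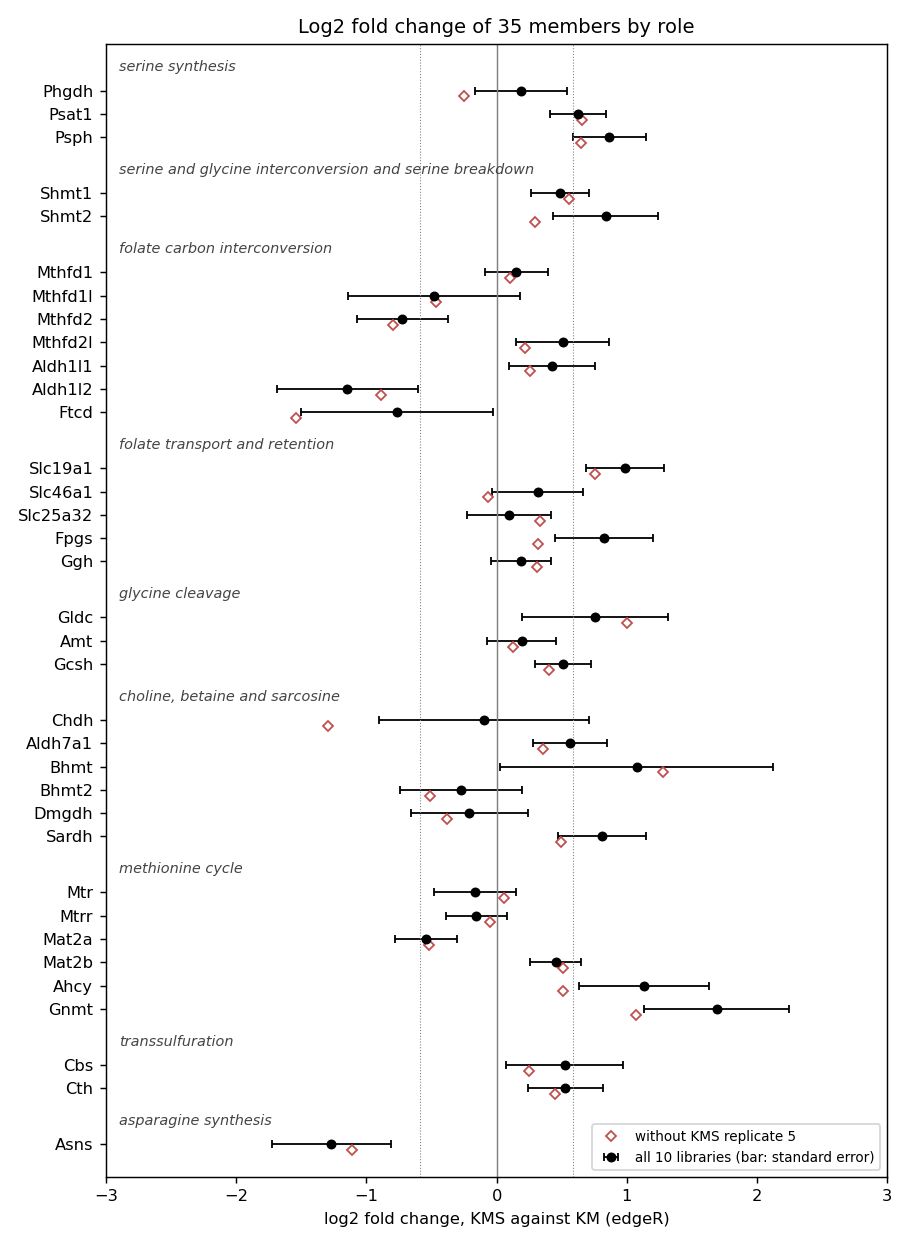
Log2 fold change of KMS against KM for the 35 genes, grouped by role, with bars of 1 standard error from edgeR, open marks for the value without KMS replicate 5 and dotted lines at a fold change of 1.5 in either direction (x axis, log2). Values run from -1.27 for Asns to 1.69 for Gnmt, and the open marks lie nearer to 0 for 22 of 35 genes.

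Serine synthesis runs from 3-phosphoglycerate through Phgdh, Psat1 and Psph. All 3 genes had positive log2 fold changes, but Psat1 and Psph differed from Phgdh in how the libraries lay. Psat1, the phosphoserine aminotransferase on chromosome 19, was at 39.6, 65.3, 35.8, 50.7 and 64.3 CPM in KM replicates 1 to 5 and at 94.2, 79.2, 78.6, 63.3 and 79.4 CPM in KMS replicates 1 to 5. Of the KMS libraries 4 lay above every KM library and replicate 4 lay within their range, with means of 51.1 ± 13.6 and 78.9 ± 10.95 CPM (SD, n = 5 each). The log2 fold change of Psat1 was 0.63 ± 0.22 (SE, unadjusted p = 0.0135, FDR = 0.19 by edgeR's quasi-likelihood test with Benjamini-Hochberg adjustment), and it was 0.66 without KMS replicate 5.

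Psph, the phosphatase of the last step, was at 15.2, 13.0, 9.12, 11.8 and 11.1 CPM in KM and at 15.1, 24.6, 18.7, 16.0 and 35.4 CPM in KMS. Only KMS replicate 1 lay within the KM range, just under its upper end, and KMS replicate 5 was the highest. The edgeR log2 fold change was 0.87 ± 0.28 (SE, unadjusted p = 0.00927, FDR = 0.179) and 0.65 without that library. Phgdh, the dehydrogenase of the first and committed step, was at 34.9, 46.6, 36.9, 60.3 and 37.9 CPM in KM and at 31.8, 47.2, 36.5, 27.8 and 103 CPM in KMS. Here 4 of 5 KMS libraries lay at or below the middle of the KM range and 1 lay far above it. Its log2 fold change of 0.19 ± 0.35 (SE, FDR = 0.806, edgeR) turned to -0.25 without KMS replicate 5, so no direction can be given for Phgdh. Phgdh has many processed copies in the genome, of which Gm7901 (98.7% identity over 1597 bases) was counted at mean levels of 4.48 CPM (KM) and 5.16 CPM (KMS), so a share of its reads may be assigned elsewhere.

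Serine is turned into glycine by Shmt1 in the cytosol and by Shmt2 in mitochondria. Per kilobase of exon Shmt2 was the more abundant, at 47.9 against 22.3 CPM per kilobase in KM and 85.7 against 31.3 in KMS. Shmt1 was at 89.7, 73.1, 93.1, 108 and 69.4 CPM in KM and at 148, 134, 140.1, 77.6 and 109 CPM in KMS. As in Psat1, all KMS libraries but replicate 4 lay above the KM range. The log2 fold change of Shmt1 was 0.49 ± 0.22 (SE, unadjusted p = 0.0482, FDR = 0.253, edgeR). With the level of Y-linked genes as a covariate it was 0.19 (unadjusted p = 0.426, FDR = 0.69, edgeR). Shmt2 was at 183, 171, 177, 94.2 and 119 CPM in KM and at 159, 151, 209.8, 198 and 613 CPM in KMS. Its KMS libraries lay within or slightly above the KM range except for replicate 5. The log2 fold change of 0.84 ± 0.40 (SE, FDR = 0.274, edgeR) became 0.29 without that library. These positive values of Shmt2 and Psph are of RNA. The paper lists the proteins SHMT2 and PSPH among those lower in KMS, and reports that mRNA and protein changes were uncoupled.

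**Figure D2:**
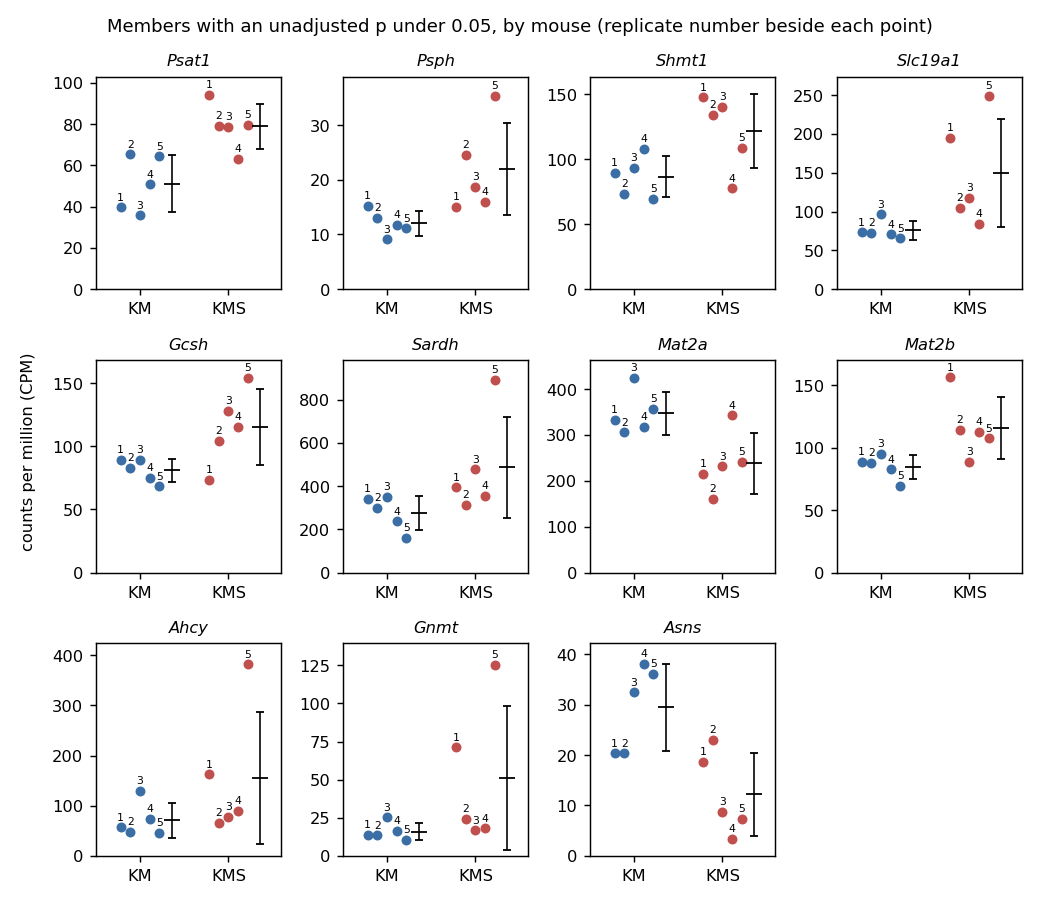
CPM of the 11 genes with an unadjusted p under 0.05 in edgeR (y axis, linear from 0), with 1 point per mouse, the replicate number beside it, and the mean with SD of each group (n = 5). The groups overlap in every panel, and KMS replicate 5 is far above the rest in Sardh, Ahcy and Gnmt but not in Psat1, Shmt1, Mat2a or Mat2b.

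The enzymes that interconvert the carbon units on folate included no gene at an unadjusted p under 0.05, with 3 positive and 4 negative log2 fold changes among 7. Mthfd2 and Aldh1l2, both mitochondrial, had values of the opposite sign to the genes of serine synthesis. Mthfd2, the mitochondrial methylene-folate dehydrogenase known from dividing and tumour cells, was at 8.64, 11.04, 6.69, 10.9 and 13.0 CPM in KM and at 6.03, 9.29, 4.79, 2.69 and 7.60 CPM in KMS. In 3 of 5 KMS libraries it lay below every KM library, and the log2 fold change was -0.72 ± 0.35 (SE, FDR = 0.276, edgeR) and -0.79 without KMS replicate 5. Aldh1l2, the mitochondrial formyl-folate dehydrogenase, was at 5.14, 5.97, 9.65, 14.4 and 31.3 CPM in KM and at 10.5, 5.19, 7.56, 4.29 and 2.37 CPM in KMS. KM replicate 5 alone was above 15 CPM, and without it the log2 fold change was -0.52 in place of -1.15 ± 0.54 (SE, FDR = 0.267, edgeR). Aldh1l2 shares 1056 bases of exon with D10Wsu102e, which was at mean levels of 43.1 CPM (KM) and 42.7 CPM (KMS), and whether strand was used in counting is unknown.

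Mthfd1l, the mitochondrial formyl-folate synthetase, was the least abundant per kilobase in KMS, at 0.516 CPM per kilobase, and its log2 fold change was -0.48 ± 0.66 (SE). It had 36 to 67 counts in the KM libraries and only 1 count in KMS replicate 3. Mthfd2l, a relative of Mthfd2, was at 8.56 to 10.95 CPM in KM and at 5.97 to 24.0 CPM in KMS, with a log2 fold change of 0.51 ± 0.36 (SE), or 0.22 without KMS replicate 5. Aldh1l1 and Mthfd1, both cytosolic, were far more abundant. Aldh1l1, the cytosolic formyl-folate dehydrogenase, had the highest level of the list at 109 CPM per kilobase in KM and 146 in KMS, and its log2 fold change was 0.42 ± 0.33 (SE), or 0.26 without KMS replicate 5. Mthfd1, the trifunctional cytosolic enzyme, was at 114 to 259 CPM in KM and 167 to 233 CPM in KMS, which gave a log2 fold change of 0.15 ± 0.24 (SE). Ftcd, which passes the formimino group of histidine breakdown to folate, was at 28.5, 25.9, 9.59, 2.75 and 5.44 CPM in KM and at 2.53, 3.35, 4.14, 9.62 and 22.9 CPM in KMS, so both groups held libraries at the low and at the high end. Its log2 fold change was -0.76 ± 0.74 (SE, FDR = 0.597, edgeR) and -1.54 without KMS replicate 5.

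Folate enters cells through carriers and is kept there by polyglutamylation, and all 5 genes of this step had positive log2 fold changes. Slc19a1, the reduced folate carrier on chromosome 10, had the lowest FDR of all 35 genes. It was at 73.2, 72.8, 96.1, 70.5 and 65.5 CPM in KM and at 195, 105, 117, 83.8 and 249 CPM in KMS. Of the KMS libraries 4 lay above the KM range, with means of 75.6 ± 11.9 and 150 ± 69.5 CPM (SD, n = 5 each). The log2 fold change was 0.99 ± 0.30 (SE, unadjusted p = 0.00656, FDR = 0.166 by edgeR's quasi-likelihood test), and it stayed between 0.76 and 1.15 when each library was left out in turn.

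Fpgs, the synthase that adds glutamates to folate, was at 47.6, 49.3, 57.9, 35.0 and 30.6 CPM in KM and at 67.8, 54.7, 41.8, 52.9 and 174 CPM in KMS. Without the last of these libraries its log2 fold change went from 0.83 ± 0.38 (SE) to 0.32. Slc46a1, the proton-coupled folate carrier, was likewise highest in KMS replicate 5 at 67.7 CPM, where the other 9 libraries spanned 16.2 to 34.7 CPM, and its value went from 0.32 to -0.069. Ggh, the hydrolase that removes the glutamates, had a log2 fold change of 0.19 ± 0.23 (SE), and Slc25a32, the mitochondrial folate carrier, one of 0.09 ± 0.32 (SE).

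The glycine cleavage system of mitochondria is built of Gldc, Amt, Gcsh and Dld. Gcsh, its lipoyl carrier protein, was at 89.3, 82.7, 89.0, 74.7 and 68.1 CPM in KM and at 73.4, 104, 128, 115 and 154 CPM in KMS. KMS replicate 1 lay inside the KM range and the other 4 above it, and the log2 fold change was 0.51 ± 0.21 (SE, unadjusted p = 0.0353, FDR = 0.232, edgeR), or 0.40 without KMS replicate 5. Gldc, the decarboxylase of the first step, varied widely within KM, at 20.8, 21.4, 61.0, 132 and 96.7 CPM, and was at 118, 51.9, 202, 139.8 and 48.8 CPM in KMS, with a log2 fold change of 0.75 ± 0.56 (SE). Amt, the aminomethyltransferase, was at 38.0 to 55.7 CPM in KM and at 30.7 to 71.4 CPM in KMS, with a log2 fold change of 0.19 ± 0.26 (SE).

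Choline is oxidised to betaine by Chdh and Aldh7a1, betaine gives a methyl group to homocysteine through Bhmt, and the remaining dimethylglycine and sarcosine are stripped by Dmgdh and Sardh. The 6 genes of this route split evenly, with 3 positive and 3 negative log2 fold changes. Sardh, the sarcosine dehydrogenase, was at 341, 298, 349, 237 and 162 CPM in KM and at 395, 313, 478, 356 and 892 CPM in KMS. Only KMS replicate 2 lay within the KM range, and the log2 fold change was 0.81 ± 0.34 (SE, unadjusted p = 0.0351, FDR = 0.232, edgeR), or 0.50 without KMS replicate 5. Chdh, the choline dehydrogenase, was at 64.0, 57.9, 81.9, 19.0 and 8.71 CPM in KM and at 5.33, 13.6, 19.7, 36.5 and 141 CPM in KMS. Its range within each group was wider than any difference between them, and the log2 fold change of -0.10 ± 0.81 (SE) became -1.30 without KMS replicate 5, again with no call.

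Bhmt, Bhmt2 and Dmgdh lie next to each other on chromosome 13 of GRCm38, with Bhmt from 93616891 to 93637758, Bhmt2 from 93656097 to 93674302 and Dmgdh from 93674436 to 93752823, so that 133 bases separate the last pair. Bhmt2, a relative of Bhmt that methylates homocysteine from S-methylmethionine, was at 76.3, 71.9, 92.7, 31.8 and 37.1 CPM in KM and at 38.6, 10.9, 58.8, 62.3 and 86.1 CPM in KMS. Dmgdh, the dimethylglycine dehydrogenase, was at 85.7, 68.4, 119, 51.4 and 38.2 CPM in KM and at 64.1, 13.4, 78.2, 62.3 and 95.8 CPM in KMS. For both genes KM replicates 4 and 5 were the lowest of their group and KMS replicate 2 was the lowest of all. Bhmt itself was at 1.86, 1.59, 1.42, 12.3 and 3.56 CPM in KM and at 1.496, 0.173, 32.7, 4.40 and 5.05 CPM in KMS, so a single library per group held most of its counts, and it did not follow its neighbours. The log2 fold changes were -0.27 ± 0.47 for Bhmt2, -0.21 ± 0.45 for Dmgdh and 1.08 ± 1.05 (SE each) for Bhmt, the last of which turned to -0.57 without KMS replicate 3. Without KMS replicate 5 those of Bhmt2 and Dmgdh were -0.51 and -0.38. Bhmt also has near copies, Gm5096 (99.4% identity over 1869 bases) and Bhmt-ps1. Aldh7a1, the betaine aldehyde dehydrogenase, had a log2 fold change of 0.57 ± 0.28 (SE, FDR = 0.29, edgeR), or 0.36 without KMS replicate 5.

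Levels of this route and of Ftcd were set beside the proximal tubule markers. Their sum was 22595, 19200, 21289, 7493 and 7331 CPM in KM and 4160, 3976, 13611, 26541 and 21734 CPM in KMS. The 4 libraries with the lowest sums were KM replicates 4 and 5 and KMS replicates 1 and 2. They were also the 4 lowest for Chdh, Bhmt2 and Aldh7a1 and were among the 5 lowest for Ftcd and Dmgdh. Outside this route the same 4 libraries were the lowest for Shmt2, Slc46a1 and Amt. For Dmgdh, KMS replicate 4, with the highest sum, was at 62.3 CPM, below KMS replicate 1 at 64.1 CPM. Sardh and Bhmt did not show this order. When the log2 of this sum was entered as a covariate, an alternative chosen after the data had been seen, the log2 fold change of Chdh went from -0.10 to 0.20 and those of Bhmt2 and Dmgdh to -0.054 and -0.0035, with none of them called. The log2 fold change of Aldh7a1 went from 0.57 to 0.63, also with no call. None of the 12 markers was at an unadjusted p under 0.05 between the groups in edgeR, and their median log2 fold change was -0.02.

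**Figure D3:**
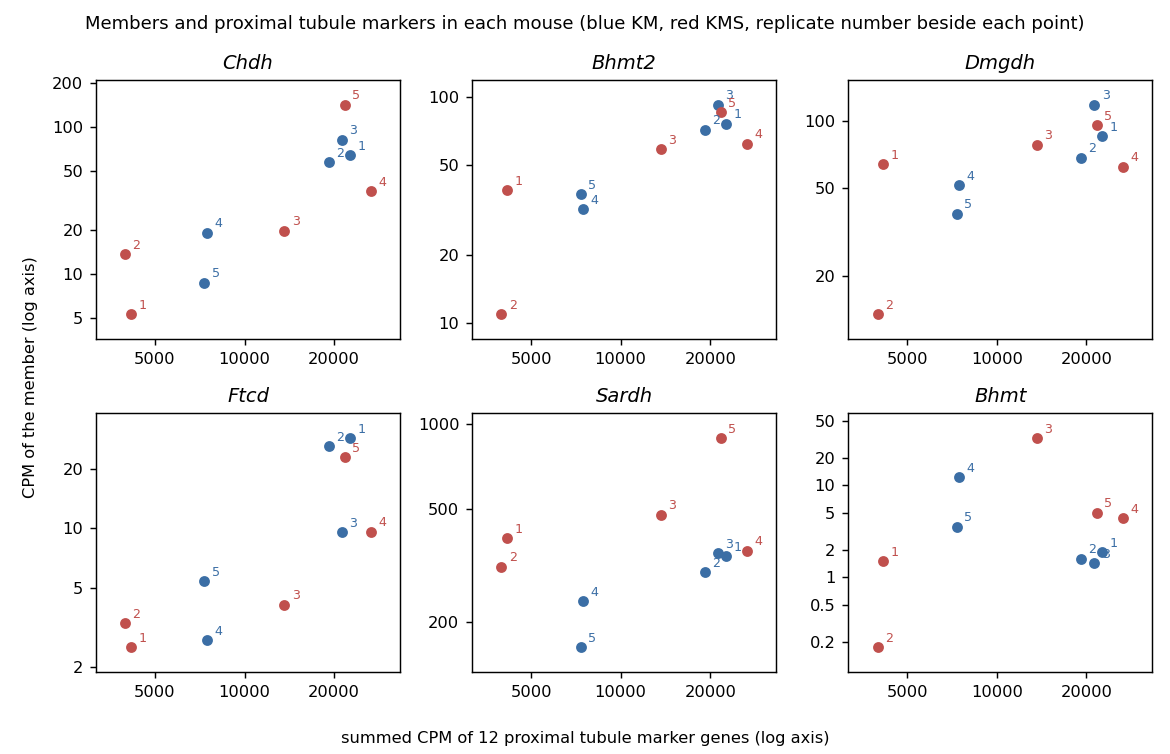
CPM of 6 genes (y axes, log scale) against the summed CPM of 12 proximal tubule markers (x axis, log scale), with 1 point per mouse, blue for KM and red for KMS, and the replicate number beside it. Chdh, Bhmt2 and Ftcd are low in the 4 libraries with the lowest marker sums, whereas Sardh and Bhmt show no such order. Aldh7a1 of the same route, also lowest in those 4 libraries, is not drawn. In Dmgdh, KMS replicate 4, with the highest sum, lies below KMS replicate 1. The 10 points share library and scaling and no test was made.

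The methionine cycle held 4 of the 11 genes at an unadjusted p under 0.05, 3 of them higher and 1 lower in KMS. Mat2a, the catalytic subunit of the methionine adenosyltransferase outside the liver, was at 333, 305, 424, 317 and 356 CPM in KM and at 216, 160.3, 232, 343 and 241 CPM in KMS. All KMS libraries but replicate 4 lay below the KM range, with means of 347 ± 46.9 and 238 ± 66.2 CPM (SD, n = 5 each) and a log2 fold change of -0.54 ± 0.24 (SE, unadjusted p = 0.0432, FDR = 0.244, edgeR). Mat2b, its regulatory subunit, lay the other way. It was at 88.6, 87.7, 95.1, 82.8 and 69.5 CPM in KM and at 156, 115, 88.8, 113 and 108 CPM in KMS, where only replicate 3 lay in the KM range. The log2 fold change was 0.45 ± 0.19 (SE, unadjusted p = 0.0378, FDR = 0.237, edgeR), and with any 1 library left out the value nearest to 0 was -0.42 for Mat2a and 0.33 for Mat2b.

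Gnmt, the glycine methyltransferase that uses up S-adenosylmethionine, had the highest log2 fold change of the list. It was at 13.9, 13.4, 25.3, 16.4 and 10.3 CPM in KM and at 71.2, 24.5, 16.7, 18.1 and 125 CPM in KMS. KMS replicates 1 and 5 were far above every other library and the remaining 3 lay inside the KM range. The log2 fold change was 1.69 ± 0.56 (SE, unadjusted p = 0.0105, FDR = 0.183 by edgeR), it was 1.07 without KMS replicate 5, and DESeq2 called it with an FDR of 0.0494 where it called 5.24% of all genes. Ahcy, the hydrolase of S-adenosylhomocysteine, had the same high libraries, at 57.2, 48.0, 129.7, 73.9 and 46.7 CPM in KM and 163, 65.6, 77.9, 90.3 and 382 CPM in KMS. Its log2 fold change was 1.13 ± 0.50 (SE, unadjusted p = 0.0434, FDR = 0.244, edgeR) and 0.51 without KMS replicate 5. The near copy Gm4737, 99.7% identical to Ahcy over 2083 bases, had mean levels of 32.5 CPM (KM) and 71.6 CPM (KMS), so reads of both genes may not be separable.

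The return from homocysteine to methionine depends on Mtr, the methionine synthase, and Mtrr, which reactivates it. Mtr had a log2 fold change of -0.17 ± 0.31 (SE), which was 0.055 without KMS replicate 5, and Mtrr had one of -0.16 ± 0.23 (SE). Homocysteine leaves the cycle through Cbs and Cth of transsulfuration toward cysteine. Cbs was at 127, 105, 199, 67.1 and 39.2 CPM in KM and at 179, 65.9, 110.3, 149 and 268 CPM in KMS. Cth was at 103, 80.5, 148, 89.2 and 56.7 CPM in KM and at 138, 78.2, 146, 151 and 176 CPM in KMS. The groups overlapped over most of their range, with log2 fold changes of 0.52 ± 0.45 and 0.53 ± 0.29 (SE). Without KMS replicate 5 that of Cbs was 0.25 and that of Cth 0.45.

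**Figure D4:**
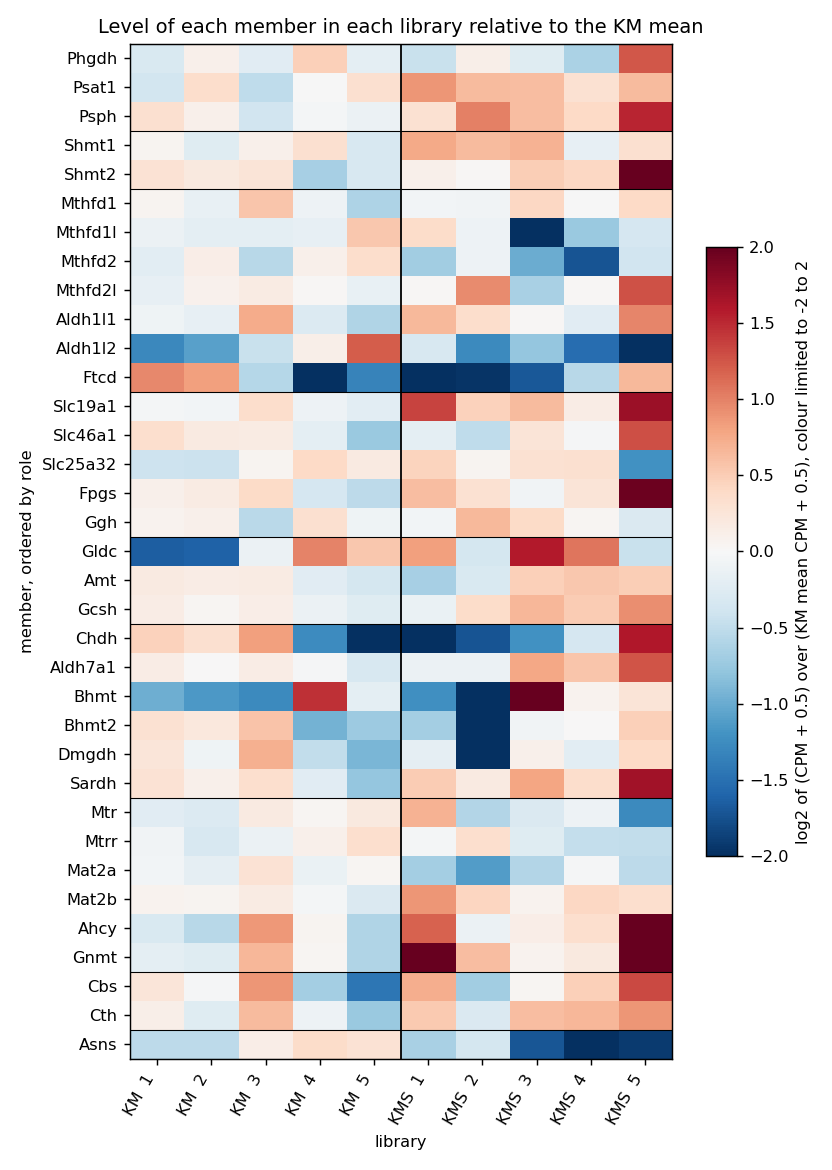
Heat map of the 35 genes (rows, by role) in the 10 libraries (columns), coloured by the log2 of (CPM + 0.5) over (KM mean CPM + 0.5) and limited to -2 to 2. KMS replicate 5 is the highest library for 16 rows and KM replicate 5 the lowest for 14, and no row separates all KM from all KMS libraries.

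Asns, the asparagine synthetase, takes no part in one-carbon chemistry but shares the amino acid response with genes of serine synthesis, and it had the most negative log2 fold change of the list. It was at 20.3, 20.3, 32.4, 38.0 and 36.1 CPM in KM and at 18.6, 23.0, 8.68, 3.35 and 7.41 CPM in KMS. KMS replicates 3, 4 and 5 were far below the KM range, replicate 1 just below it and replicate 2 within it, with means of 29.4 ± 8.55 and 12.2 ± 8.24 CPM (SD, n = 5 each). The log2 fold change was -1.27 ± 0.46 (SE, unadjusted p = 0.0174, FDR = 0.196, edgeR) and stayed between -1.62 and -1.02 when each library was left out. With the proximal tubule sum as a covariate it was -1.79 and passed the thresholds (FDR = 0.0228, edgeR), where 0.846% of all genes did.

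The promoter of Asns is shown because it holds the response element through which ATF4 is known to act, here read from RefSeq promoters of GRCm38.p6 spanning 250 bases before to 50 after each gene's start. Of the 35 genes, 30 could be matched to a promoter. The core TGATGNAA, searched on both strands, was in 1 of them (3.33%), Asns, and in 4.51% of the windows of all 27025 genes. In Asns it starts 23 bases before the gene's start and is followed after 12 bases by GTTACA, a motif searched only after this window had been seen, and 6 of the 27025 genes (0.0222%) had that core with GTTACA within 20 bases on the same strand. The E-box CACGTG, the core bound by MYC, was in 1 of 30 (Cbs) and in 8.09% of all genes. It starts 229 bases before the start used for the promoter window of Cbs. That start differs from the outer end of the gene, which lies at 31637233. Both stretches lie on the minus strand, in chr6:7693199-7693258 for Asns and chr17:31637403-31637455 for Cbs, and the motifs are in capitals. A match is a description of the letters only.
Asns: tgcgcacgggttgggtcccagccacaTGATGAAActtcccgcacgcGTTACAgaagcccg
Cbs: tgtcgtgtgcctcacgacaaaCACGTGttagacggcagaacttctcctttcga

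Beyond Asns, the list holds other genes known as ATF4 targets, namely Phgdh, Psat1, Psph, Shmt2, Mthfd2 and Aldh1l2, and these lay on both sides. Atf4 and 18 further known targets were therefore taken as a comparison list, of which 4 (21.1%) were higher and 3 (15.8%) lower in KMS at an unadjusted p under 0.05, beside 10.8% and 8.62% of all tested genes, and none was called. Without KM replicate 5, and likewise without KMS replicate 3, 0 were lower at that p. The median log2 fold change of 0.10 gives no direction, since it was -0.057 with upper-quartile factors and -0.072 without KMS replicate 1. Atf4 itself was at 80.7 to 121 CPM in KM and at 98.5 to 189 CPM in KMS, with a log2 fold change of 0.58 ± 0.24 (SE, unadjusted p = 0.0311, FDR = 0.223, edgeR). Slc3a2, the heavy chain of amino acid exchangers, was at 181, 194, 181, 284 and 244 CPM in KM and at 556, 389, 582, 256 and 404 CPM in KMS, with a log2 fold change of 1.01 ± 0.27 (SE, FDR = 0.149, edgeR). Its partner Slc7a5, the light chain that carries large neutral amino acids, was at 10.7, 13.2, 14.0, 14.1 and 45.9 CPM in KM and at 12.9, 11.5, 2.72, 1.98 and 5.36 CPM in KMS, with a log2 fold change of -1.50 ± 0.58 (SE, FDR = 0.212, edgeR). KM replicate 5 was far above the other KM libraries, and without it the value was -0.91. The KMS libraries with little Slc7a5 mRNA, replicates 3, 4 and 5, were the same 3 libraries that were lowest for Asns. Sesn2, a stress-induced inhibitor of mTORC1 signalling, had a log2 fold change of 0.91 ± 0.31 (SE, FDR = 0.188, edgeR).

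**Figure D5:**
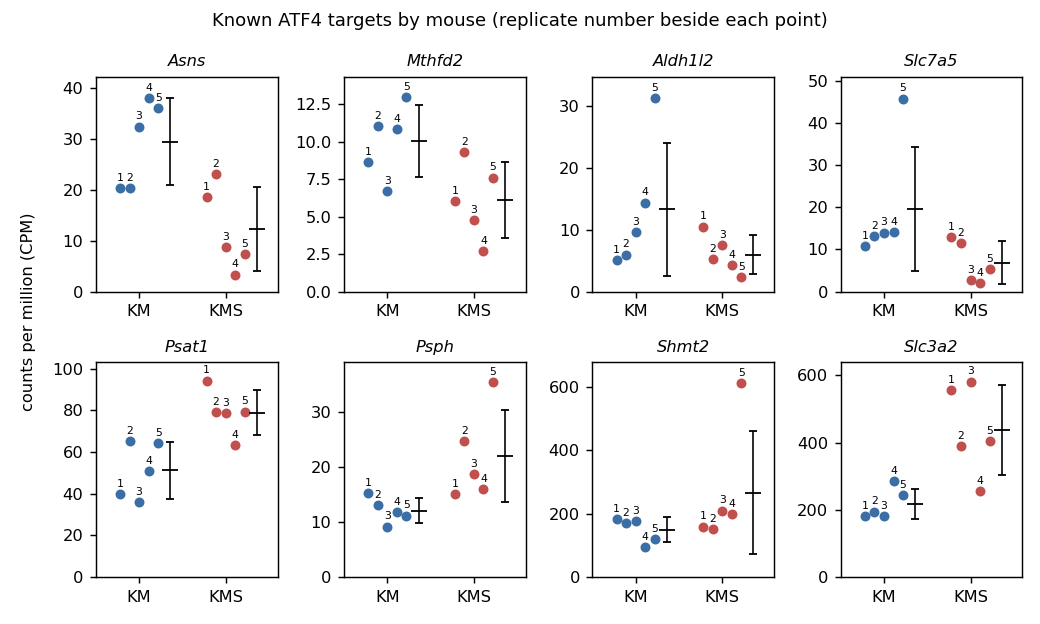
CPM of 8 genes known as ATF4 targets (y axis, linear from 0), with 1 point per mouse, the replicate number beside it and the mean with SD of each group (n = 5). The upper row holds genes with negative log2 fold changes (Asns, Mthfd2, Aldh1l2, Slc7a5) and the lower row genes with positive ones (Psat1, Psph, Shmt2, Slc3a2), and the groups overlap in every panel.

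Further genes that feed or use the pathway were described in the same way, and none of the 58 tested in the 5 comparison lists was called, and at an unadjusted p under 0.05 there were 5 higher and 5 lower (8.62% each), near the 10.8% and 8.62% of all tested genes. Of 12 other enzymes and receptors of folate and methionine, 9 had positive log2 fold changes, with a median of 0.30, or 0.17 without KMS replicate 5. Folr1, the folate receptor of the proximal tubule brush border, was at 234, 225, 239, 162 and 163 CPM in KM and at 389.6, 146, 373, 407 and 837 CPM in KMS. As for Slc19a1, 4 of 5 KMS libraries lay above the KM range, and the log2 fold change was 1.07 ± 0.38 (SE, unadjusted p = 0.0168, FDR = 0.194, edgeR), or 0.71 without KMS replicate 5. The other 3 of lowest p in this list were Mthfs, Dld and Adi1, with log2 fold changes of 0.85 ± 0.42, 0.32 ± 0.21 and 0.72 ± 0.48 (SE). Without KMS replicate 5 they were 0.25, 0.38 and -0.055. Mat1a, the liver form of methionine adenosyltransferase, named after its values were seen, did not pass the filter and was at most 0.378 CPM in any library.

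Purine synthesis, which takes formyl groups from folate, had 3 positive and 5 negative values among 8 genes, and its median lay between -0.15 and 0.11 when each library was left out in turn. Paics, an enzyme of the middle of the route, was at 219 to 362 CPM in KM and 302 to 489 CPM in KMS, with a log2 fold change of 0.41 ± 0.23 (SE), while Atic, which uses formyl-folate directly, had -0.45 ± 0.28 (SE), or -0.28 without KMS replicate 4. Among 12 methyltransferases and other users of S-adenosylmethionine the median of 0.18 turned to -0.20 without KMS replicate 5, to -0.19 in limma-voom and to -0.57 with quality weights. Dnmt1, the maintenance DNA methyltransferase, was at 17.9 to 27.3 CPM in KM and 12.5 to 20.8 CPM in KMS. Its log2 fold change was -0.51 ± 0.22 (SE, unadjusted p = 0.0378, FDR = 0.237, edgeR). Ezh2, which methylates H3K27, had -0.44 ± 0.33 (SE), and Prmt1, the main arginine methyltransferase, had 0.68 ± 0.37 (SE). Without KMS replicate 5 they were -0.29 and 0.39.

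Serine also enters sphingolipids through serine palmitoyltransferase. The catalytic subunit gene Sptlc2 had a log2 fold change of 0.22 ± 0.22 (SE), the small subunit gene Sptssa had 0.20 ± 0.20 (SE), and Ptdss2, which makes phosphatidylserine, had 0.41 ± 0.27 (SE), or 0.20 without KMS replicate 5. Sptssb, an alternative small subunit that favours longer acyl chains, was at 5.14, 29.0, 6.99, 0.756 and 9.22 CPM in KM and at 0.0468, 0.173, 0, 0 and 0.436 CPM in KMS. Every KMS library lay below every KM library, which held for 2.94% of all tested genes, and the log2 fold change of -6.25 ± 1.13 (SE, FDR = 0.0736, edgeR) was not called but rests on very few KMS reads. DESeq2 gave it an FDR of 5.32e-08, with a log2 fold change of -6.33.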

How the data were processed

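Polyadenylated RNA of 5 KM and 5 KMS mice was sequenced with a directional kit as 150-base pairs, aligned by the authors to GRCm38 with HISAT2 and counted per gene with HTSeq, whose version and use of strand no source here gives. The counts deposited by the authors are whole numbers, not normalized. All 10 columns were mapped from their labels, and 0 value columns were left unmapped. The table also holds the authors' own fold changes, p-values and FDR, which were not used. The methods name RUVSeq without its settings, and fastp for checking the RNA reads. The submitters' processing notes name cutadapt 1.9.1, Trimmomatic 0.35 and MACS2 2.1.1, which the methods list for the study's ChIP-seq.

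KMS was compared with KM across all 15728 genes kept by filterByExpr in edgeR 4.0.16 (R 4.3.3), with TMM factors, the quasi-likelihood test without covariates and Benjamini-Hochberg adjustment over all tested genes. CPM use TMM factors, and standard errors are the absolute log2 fold change over the square root of F. The fit was tested on simulated counts. Totals of 10873993 to 25029639 counts make genes of low level less precise, in KM above all. The study describes the replicates as separate mice. KM replicates 1 and 2, the most alike pair, differed by more than sampling noise. Their counts had a chi-square per gene of 5.88, where the other pairs within a group had 48.9 to 706. Why these libraries were so alike was not tested. Alternatives were RLE and upper-quartile factors, DESeq2 1.42.0, limma 3.58.1 (voom, with and without quality weights), no filter, RUVg and RUVr with 1 factor (computed as in RUVSeq, with all but the 5000 genes of lowest p as controls for RUVg), the Y-linked level or the proximal tubule level as a covariate, a replicate block, no fold threshold and each library left out. A search of the GENCODE vM21 transcripts with BLAST 2.17.0 gave near copies at 90% identity over 300 bases. Gene positions and promoters are those of RefSeq for GRCm38.p6.

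The genes of the list and the comparison lists were chosen with earlier results of these data known. All 36 genes are named, and in each comparison list up to 4 genes of lowest unadjusted p, of which some are not reported here. Setd2 is named as the deleted gene. Other names are said to be chosen after their values were seen.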

Additional observations from a re-analysis of the deposited data

Results flagged for a closer look

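In 11 of the 70 groups of 5 libraries (35 genes in KM and in KMS), the highest library lay so far from the next that its gap exceeded 0.71 of the group's range, Dixon's critical value. For normally distributed values about 1 in 20 groups would pass this value at either end. CPM need not be normally distributed and the genes share libraries, so the rate by chance is not known here. KMS replicate 5 was the library in 6 of the 11, at 103 CPM for Phgdh (next 47.2), 613 CPM for Shmt2 (next 209.8), 67.7 CPM for Slc46a1 (next 32.7), 174 CPM for Fpgs (next 67.8), 141 CPM for Chdh (next 36.5) and 892 CPM for Sardh (next 478). KM replicate 3 stood out with 828 CPM of Aldh1l1 (next 463) and 96.1 CPM of Slc19a1 (next 73.2). KM replicate 5 had 4.86 CPM of Mthfd1l (next 2.90). Bhmt stood out in both groups, with 12.3 CPM in KM replicate 4 (next 3.56) and 32.7 CPM in KMS replicate 3 (next 5.05).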

How the results depend on the processing

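The 16 calls over all genes became 25 with upper-quartile factors (5 higher and 20 lower), 1072 in DESeq2, 33 in limma-voom, 660 with quality weights, 998 with RUVg, 2346 with RUVr, 7 with the Y-linked covariate, 133 with the proximal tubule covariate and 9 to 42 when 1 library was left out. Without a fold threshold they stayed at 16. Of the 35 genes, 1 was called in DESeq2 (Gnmt), 1 with quality weights (Gldc, log2 fold change 2.21, FDR 0.0472 by limma), 1 with RUVg (Slc19a1, FDR 0.0468), 6 with RUVr (Psph, Shmt2, Slc19a1, Fpgs, Sardh and Gnmt, where 14.9% of all genes were called) and 1 with the proximal tubule covariate (Asns). Other alternatives, each left-out library included, called 0. In the comparison lists, 2 genes were called in DESeq2, 2 with quality weights, 2 with RUVg, 5 with RUVr, 2 with the proximal tubule covariate and 0 to 1 when 1 library was left out (without KM replicate 4, Sptssb, FDR 0.047 by edgeR). Of the 735 values of the 35 genes under 21 alternatives, 23 had the opposite sign, and 26 genes had none. The sign turned for Phgdh with quality weights (-0.21) and RUVg (-0.11), Slc46a1 with quality weights (-0.18), Slc25a32 with upper-quartile factors (-0.033), RUVr (-0.036) and the Y-linked covariate (-0.12), and Prmt1 with quality weights (-0.17). With the Y-linked covariate it also turned for Ftcd (0.59), Chdh (0.55) and Bhmt2 (0.17), and with the proximal tubule covariate for Chdh (0.20). With 1 library left out, ranges crossed 0 for Phgdh (-0.25 to 0.34), Slc46a1 (-0.069 to 0.48), Slc25a32 (-0.0093 to 0.33), Chdh (-1.30 to 0.22), Bhmt (-0.57 to 2.05), Dmgdh (-0.38 to 0.057), Mtr (-0.50 to 0.055) and Adi1 (-0.055 to 0.92). The cause was not tested. No pairing of the mice by replicate number was visible. Deviations of same-numbered libraries correlated at -0.34, 0.14, -0.28, 0.12 and -0.44, and 0 of 5 correlated best with its own number. So few values cannot exclude a pairing. A replicate block gave 2 calls over all genes, 0 among the 35, and -0.14 for Bhmt.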
